A study of Mus musculus with 34 samples.

Results

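The 30 genes described here encode the machinery of sterol and fatty acid synthesis: the SREBP transcription factors and the proteins that control them, the enzymes from acetyl-CoA to cholesterol, 1 sterol carrier, and the enzymes of fatty acid synthesis and desaturation. They were taken by gene symbol from a list that uses the genes' known roles and applies no threshold to measured values, though it was drawn up with earlier results of these data known, and all 30 were found among the 24223 rows of the knockout count table. The libraries are of poly-A RNA from tracheal brushings of 28 Gprc5a-/- mice, 1 library a mouse; these mice lack both copies of an epithelial receptor gene and are prone to lung tumours. A baseline group of 6 was sampled with no exposure, and 6 more (t0) directly after it. Groups of 5 (t2), 6 (t4) and 5 (t6) followed 2, 4 and 6 months after the last dose. The agent was NNK, a nitrosamine of tobacco, injected into the peritoneum in doses of 50 mg/kg, with 3 doses weekly over 8 weeks. The knockout allele is shared by every one of these groups, the baseline included. Mouse age is given as 6 to 8 weeks for every library, and no unexposed mice of later ages were used here, so age and time since exposure cannot be told apart. Another 6 libraries came from wild-type mice before exposure, and they serve only for levels per transcript length.

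Cells make cholesterol from acetyl-CoA through mevalonate, isoprenoid units, squalene and lanosterol, and most enzymes of this route are controlled together by SREBP-2, the product of Srebf2. SREBPs start as membrane proteins of the endoplasmic reticulum. Scap escorts them to the Golgi, where they are cut and freed to enter the nucleus, and when sterol is plentiful the Insig proteins hold Scap back. SREBP-1c, from Srebf1, acts more on the genes of fatty acid synthesis and is itself raised by the oxysterol receptors LXR. In the lung this system is best known from alveolar type 2 cells, which make the lipid of surfactant.

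Knockout libraries held 15625276 to 37609816 counts. Gprc5a counts were 4 to 49 in 27 knockout libraries and 238 in the library labelled t2 339, which also held the fewest genes above 0 (14475, against at least 16892 in the others). Haemoglobin transcripts took 15.3% to 25.5% of counts in t0 357, t4 371 and t6 349, and the ribosomal precursor Rn45s took 14.8% in t6 365. The ciliated cell markers of t0 359 summed to 2541 CPM (counts scaled to a common library size by TMM), against 718 to 1211 in the other t0 libraries. These 6 libraries are called set apart below. The labelled epithelium was present in every group: the 8 club cell markers summed to 163199, 191465 and 236639 CPM at baseline (lowest, median and highest) and 24186, 31489 and 39096 at t0. In brushings, fewer cells of a type and less RNA per cell cannot be told apart. The libraries differ by mouse, so p-values measure the spread between mice.

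In the unexposed wild-type libraries, TPM, a level per transcript length, gave Ebp the highest mean among the 30 (61.1 ± 22.6 TPM, SD, n = 6), followed by Srebf2 (51.3 ± 15.8), Fdps (50.0 ± 23.2) and Fasn (41.9 ± 9.62). The lowest were Elovl6 (1.65 ± 1.47), Hsd17b7 (2.71 ± 1.09), Acaca (4.23 ± 1.95) and Scd1 (4.92 ± 4.52). Neighbours in this order lay within their SDs of each other, and Ebp was the highest member in 3 of the 6 libraries, so that the order describes means and does not separate adjacent genes. The wild-type tables were made separately from the knockout table, and no test was run between them.

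At the end of exposure, several sterol genes stood below baseline, and from t2 to t6 the sterol genes that differed from baseline stood above it, with 1 exception, Insig1 at t2. At t0, 9 members fell and 4 rose of 30 (edgeR quasi-likelihood test, Benjamini-Hochberg adjusted p under 0.05 over 14847 genes), or 43.3%, close to the 45.5% of all genes called in that comparison (22.3% fell and 23.3% rose). At t2, 7 rose and 2 fell (30% called, against 19.9% of all genes, of which 11.2% rose and 8.73% fell). At t4, 9 rose and 0 fell (30%, against 10% of all genes that rose, 9.56% that fell and 19.6% called either way), and at t6, 8 rose and 0 fell (26.7%, against 4.54% that rose, 4.29% that fell and 8.83% called either way). Between t0 and t2, 14 members rose and 0 fell (46.7%, against 15.7% of all genes that rose, 14.2% that fell and 29.9% called). Between t0 and t6, 13 rose and 1 fell (46.7% called, against 18.2% of all genes that rose, 20.5% that fell and 38.7% called). Groups whose libraries did not overlap were counted too, in either direction. That held for 4 members at t0 against baseline (25.8% of all genes), 8 at t2 (11.9%), 8 at t4 (13%) and 5 at t6 (9.39%). Between t0 and t2 it held for 8 (12.7%), and between t0 and t6 for 9 (23%). The medians of the 30 members were −0.17 (t0), 0.20 (t2), 0.31 (t4) and 0.39 (t6) on the log2 scale against baseline, beside 0.02, 0.02, 0.01 and −0.01 over all genes tested. With library totals in place of TMM, 6 members rose and 4 fell at t0, since the calls of Acat2, Idi1, Fdft1, Cyp51 and Hsd17b7 were lost, and over all genes the median became 0.19 (t0) and 0.12 (t2). Those totals also ended the calls of Hmgcs1 at t4 and of Mvd and Nsdhl at t6, those of Acat2, Idi1 and Fdft1 from t0 to t2, and that of Lss from t0 to t6. Without the filter on low counts, the calls of Mvk at t2, of Scap, Mvk and Pmvk at t4 and of Mvd at t6 were lost. Limma called 1 member lower at t4, and a fit of baseline and t4 alone called 12 higher and 1 lower. In none of the 4 comparisons with baseline were 7 of the 30 called (Srebf1, Insig2, Sc5d, Dhcr7, Acly, Acaca and Elovl6), and 2 were called in all 4, Mvd and Fasn. Over the 5 groups, an F test called 20 of 30 members (66.7%, against 56.8% of all genes). It did not call Mvk (adjusted p = 0.058), Pmvk (0.095) or Scd2 (0.075), which each had a call against baseline.

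**Figure D1:**
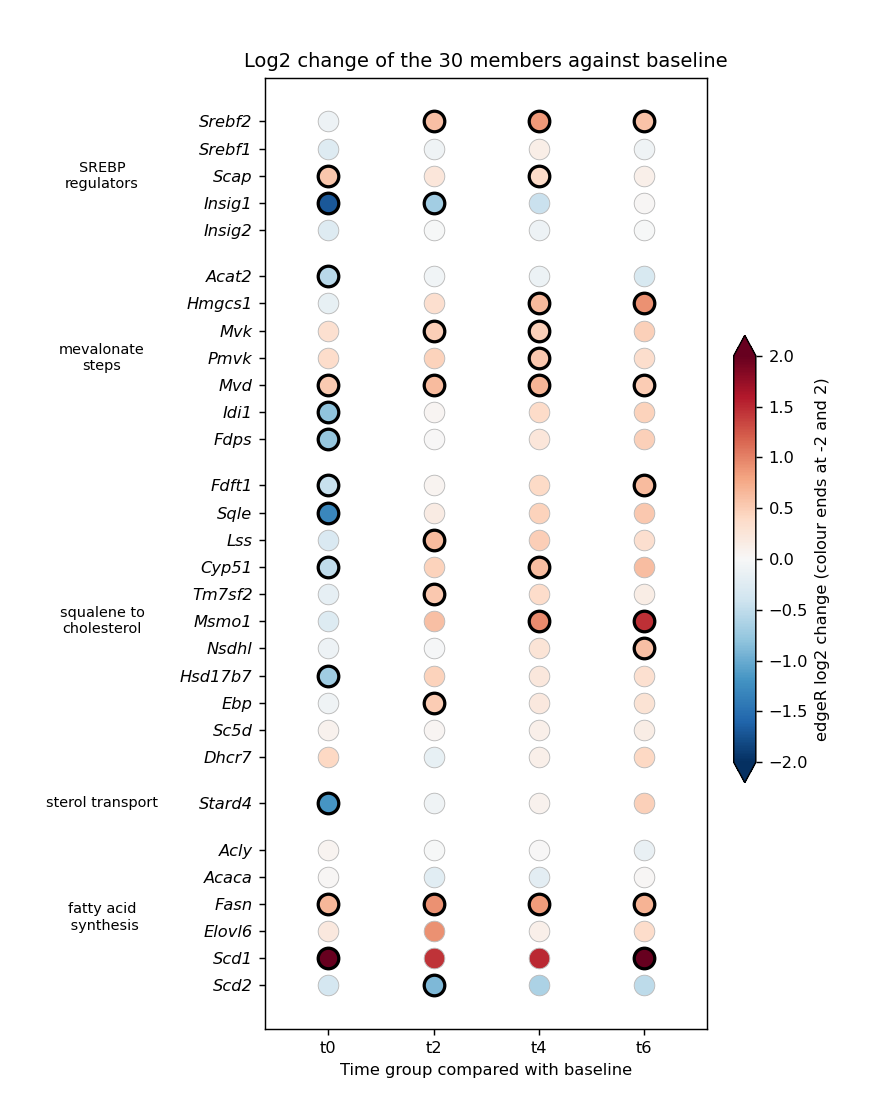
Log2 change of each member (rows, grouped by role) at t0, t2, t4 and t6 against baseline (columns); colour gives the edgeR log2 change, and a thick black ring marks an adjusted p under 0.05. The t0 column holds 9 ringed blue points, among them Insig1 (−1.70) and Sqle (−1.30), and the t6 column holds 8 ringed points, all red.

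Across the 18 enzymes from Acat2 to Dhcr7, 7 fell and 1 rose at t0 (44.4% called, close to the 45.5% of all genes). At t2, 5 rose and 0 fell (27.8%, against 19.9% of all genes called). At t4, 6 rose and 0 fell (33.3%, against 19.6%), and at t6, 5 rose and 0 fell (27.8%, against 8.83%). As a description of each library, the median of these 18 genes' log2 differences from the baseline mean was taken. It lay between −0.19 and 0.19 in the baseline libraries, between −0.46 and 0.04 at t0, between 0.09 and 0.35 at t2, between 0.25 and 0.59 at t4, and between 0.10 and 0.69 at t6. The t0 libraries overlapped baseline, while every t4 library lay above every baseline library. From t0 to t2, the call of Acat2 ended without t2 334 (adjusted p = 0.057) and that of Fdft1 without t0 374 or 375 or t2 334, 339 or 347 (adjusted p up to 0.095), and both ended without the 6 libraries set apart. These comparisons share the t0 or baseline libraries.

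**Figure D2:**
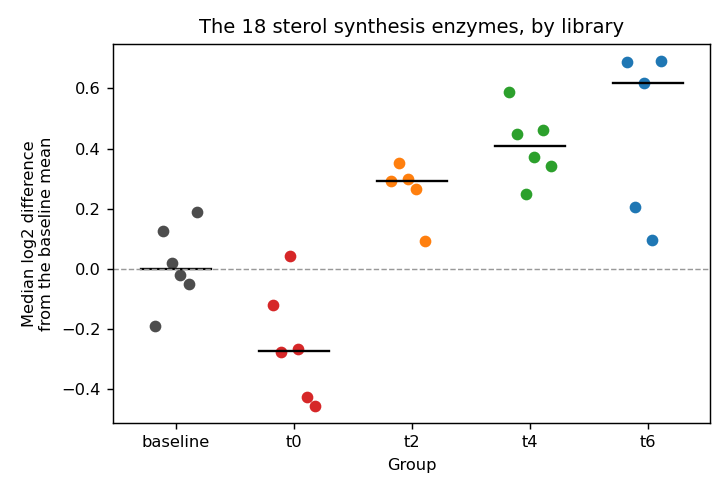
For each knockout library (points, coloured by group), the median over the 18 sterol synthesis enzymes of the log2 difference from the baseline mean (vertical axis); bars are group medians. The 6 t0 points reach down to −0.46, and the 6 t4 points lie at 0.25 or above.

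The promoters below are of some members that moved, each with NF-Y letters before the start site, and other members that moved are not shown. They are shown because SREBPs act at such promoters together with the factors NF-Y and Sp1. RefSeq windows of 300 bases (250 before to 50 after each start site, GRCm38.p6) were at hand for 24 of the 30 genes. Fdps, Fdft1, Sqle, Stard4, Scd1 and Scd2 had no entry. Capitals mark the NF-Y letters CCAAT, which read ATTGG on the other strand, and, in Hmgcs1, the SRE-like letters TCACNCCAC, and each stretch lies before the start site, 5′ to 3′ on the gene's strand.
Insig1 (chr5:28071176-28071220, plus strand, 236 to 192 bases before the start site): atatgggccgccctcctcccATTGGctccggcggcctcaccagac
Hmgcs1 (chr13:119690101-119690330, plus strand, 250 to 21 bases before the start site): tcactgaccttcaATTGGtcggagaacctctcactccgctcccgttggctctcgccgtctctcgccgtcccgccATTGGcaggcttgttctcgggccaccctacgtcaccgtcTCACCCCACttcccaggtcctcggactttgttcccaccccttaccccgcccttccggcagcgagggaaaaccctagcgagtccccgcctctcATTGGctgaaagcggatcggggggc
Idi1 (chr13:8885541-8885605, plus strand, 65 to 1 bases before the start site): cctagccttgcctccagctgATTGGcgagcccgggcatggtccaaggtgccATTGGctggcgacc
Cyp51 (chr5:4104702-4104746, minus strand, 49 to 5 bases before the start site): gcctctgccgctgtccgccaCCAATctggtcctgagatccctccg
Msmo1 (chr8:64733609-64733758, minus strand, 180 to 31 bases before the start site): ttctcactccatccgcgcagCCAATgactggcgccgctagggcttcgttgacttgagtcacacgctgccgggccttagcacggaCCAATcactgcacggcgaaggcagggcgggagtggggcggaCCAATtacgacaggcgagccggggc
Fasn (chr11:120824582-120824657, minus strand, 110 to 35 bases before the start site): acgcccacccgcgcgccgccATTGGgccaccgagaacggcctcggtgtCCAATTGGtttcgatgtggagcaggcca

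The letters CCAAT, on either strand, were in 20 of the 24 member genes with a window (83.3%), against 42.2% of the 11070 tested genes with a window and 41.1% of all 27025 genes in the table. Scap, Acat2, Acaca and Elovl6 had none, and of these Scap and Acat2 were called at t0. By window, 21 of 32 member windows and 37.4% of all 32851 windows held them. The Sp1 letters GGGCGG were in 20 of 24 (83.3%), against 65.5% of tested genes, and the E-box CACGTG in 5 of 24 (20.8%), against 11.1%. The SRE-like letters were in 1 of 24, Hmgcs1, 137 bases before the start site (chromosome 13, 119690214 to 119690222), against 1.45% of tested genes. None of these 4 motifs contains another, though in Fasn a CCAAT and an ATTGG share bases. A match is a description of letters, not of binding, and genes that held CCAAT included members that moved (Insig1, Msmo1) and members with no call in any comparison (Sc5d, Acly, Dhcr7).

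Among the regulators, Insig1 was lower at the end of exposure and Srebf2 was higher from 2 months later on. Srebf2 (chromosome 15, 82147269 to 82204961, mm10) encodes SREBP-2. Its CPM (lowest, median and highest) was 135, 181 and 221 at baseline and 141, 169 and 190.4 at t0, which overlapped (log2 change −0.10, SE 0.12, adjusted p = 0.50). It was 235, 260.4, 270.0, 295 and 304 in the 5 t2 libraries, 267, 327 and 369 (lowest, median and highest) at t4, and 231, 232, 292, 292 and 299.8 in the 5 t6 libraries. Every t2, t4 and t6 library was above every baseline library. The log2 change was 0.61 (SE 0.12, adjusted p = 0.0012) at t2, 0.87 (SE 0.12, adjusted p = 1.6e-05) at t4 and 0.59 (SE 0.12, adjusted p = 0.0025) at t6. No single library ended these calls. Insig1 (chromosome 5, 28071412 to 28078663), which holds Scap in the endoplasmic reticulum and is itself raised by SREBPs, stood at 72.8, 87.1 and 95.7 CPM at baseline and 21.6, 26.6 and 29.98 at t0, a 3.25-fold lower level (log2 change −1.70, SE 0.19, adjusted p = 6.8e-08). It was 47.7, 48.1, 53.9, 56.5 and 58.5 in the t2 libraries, still below every baseline library (log2 change −0.69, SE 0.19, adjusted p = 0.013). At t4 its libraries spread from 25.9 in t4 340 to 82.2 in t4 371 (log2 change −0.45, SE 0.18, adjusted p = 0.083), and at t6 they were 65.5, 75.5, 82.6, 90.02 and 120.1, on both sides of the baseline median (log2 change 0.02, SE 0.19, adjusted p = 0.96).

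Scap rose at t0, from 60.5, 68.4 and 89.4 to 87.6, 99.3 and 129 CPM (lowest, median and highest), with 1 baseline library inside the t0 range (log2 change 0.55, SE 0.13, adjusted p = 0.00095). It was also called at t4 (log2 change 0.38, SE 0.13, adjusted p = 0.040), where the call ended without baseline 343, 344, 345 or 356 or t4 335, 336, 340, 348 or 371 (adjusted p up to 0.095). Srebf1, which encodes SREBP-1, was not called at any time, with log2 changes of −0.25, −0.08, 0.13 and −0.08 at t0, t2, t4 and t6 and group medians of 124 CPM at baseline and 92.8 to 117 after exposure. Insig2, the second Insig protein, which is less dependent on SREBPs, had no call either, with group medians between 57.1 and 68.5 CPM. The ratio of both Insig genes within a library does not depend on scaling. As log2(Insig2/Insig1) it was −0.38 ± 0.25 (SD, n = 6) at baseline and 1.07 ± 0.26 (n = 6) at t0, and the difference was 1.45 (exact two-sided permutation test, p = 0.0022, adjusted over 8 ratio tests 0.0087, p = 0.0022 being the smallest possible). At t2 it was 0.25 ± 0.35 (n = 5, difference 0.63, exact permutation p = 0.015, adjusted 0.028). At t4 it was 0.04 ± 0.59 (n = 6, difference 0.42, exact permutation p = 0.13, adjusted 0.15), and at t6 −0.38 ± 0.20 (n = 5, difference −0.0047 on the log2 scale, exact permutation p = 0.97, adjusted 0.97). Without t4 371 the t4 difference was 0.57 (adjusted 0.040), and the t2 call ended without any of baseline 343, 344, 345, 352 or 355 or t2 334 or 347 (adjusted up to 0.079).

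**Figure D3:**
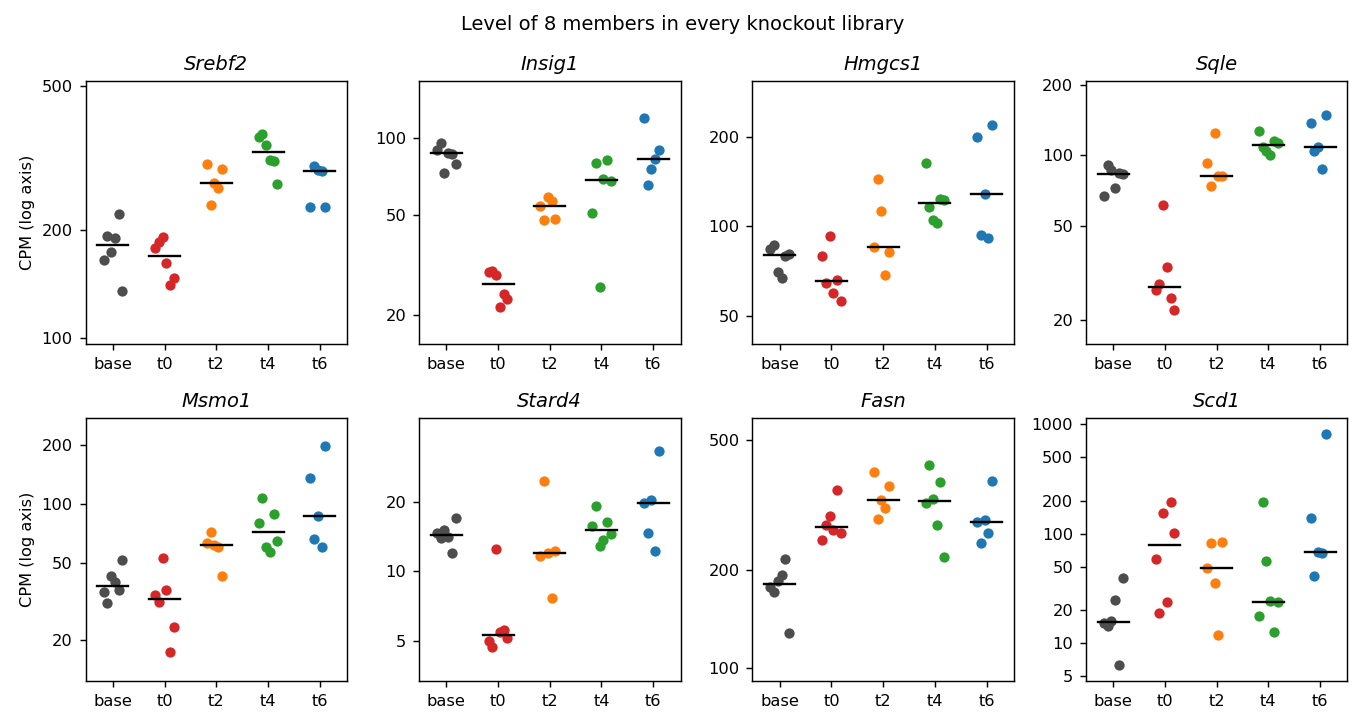
CPM (log axis) of 8 members in each of the 28 knockout libraries (points), by group, with bars at the group medians. Insig1 and Sqle have their lowest group medians at t0, Srebf2 lies above every baseline library from t2 on, and Fasn lies above every baseline library in all 4 exposed groups.

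In the mevalonate steps, enzymes parted at t0: Idi1, Fdps and Acat2 fell while Mvd rose. Idi1, which makes the reactive isoprenoid unit from its isomer, stood at 24.8, 27.8 and 41.5 CPM (lowest, median and highest) at baseline and 11.6, 15.5 and 26.6 at t0 (log2 change −0.81, SE 0.24, adjusted p = 0.0081). The t0 library with 26.6 CPM was t0 359, and it reached into the baseline range. Fdps, which joins isoprenoid units to farnesyl diphosphate, was at 22.8, 30.3 and 44.5 and 14.9, 18.7 and 23.7 (log2 change −0.77, SE 0.16, adjusted p = 0.00026), with ranges that overlapped slightly. From t0 to t6 it rose by 1.25 on the log2 scale (adjusted p = 1.6e-06), to 32.8, 37.6, 49.9, 50.4 and 58.2 CPM in the 5 t6 libraries, all above every t0 library. Against baseline Fdps was not called at t2, t4 or t6. Acat2, which condenses acetyl-CoA in the cytosol, fell at t0 (log2 change −0.56, SE 0.14, adjusted p = 0.0024) and was not called later against baseline. Mvd, which makes isopentenyl diphosphate, rose at all 4 times: its level was 9.89, 12.3 and 13.6 CPM at baseline and 15.2, 17.3 and 19.3 at t0, with no overlap (log2 change 0.53, SE 0.15, adjusted p = 0.0048). The log2 change was 0.63 (SE 0.16, adjusted p = 0.0057) at t2, 0.68 (SE 0.15, adjusted p = 0.0023) at t4 and 0.50 (SE 0.16, adjusted p = 0.040) at t6. At t6 the call ended without baseline 343, 345, 352 or 356 or t6 341, 365 or 368 (adjusted p up to 0.11), and it was also lost with library totals, with limma, without the filter on low counts, and in a fit of baseline and t6 alone.

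Hmgcs1 (chromosome 13, 119690351 to 119708261), which makes the HMG-CoA from which mevalonate is formed and whose promoter carries the SRE-like letters shown above, was late to rise. It stood at 66.9, 79.97 and 86.4 CPM at baseline, 56.2, 65.2 and 92.9 at t0 and 68.4, 81.8, 85.1, 113 and 144 in the 5 t2 libraries, all overlapping. At t4 it was 103, 119 and 163 and at t6 91.3, 93.6, 128, 199 and 219.5 in the 5 libraries, with every one above every baseline library. The log2 change was 0.65 (SE 0.20, adjusted p = 0.022) at t4, where the call ended without t4 335 (adjusted p = 0.064), and 0.91 (SE 0.21, adjusted p = 0.0051) at t6. Mvk, which phosphorylates mevalonate, passed at t2 (log2 change 0.49, SE 0.17, adjusted p = 0.044) and t4 (log2 change 0.48, SE 0.16, adjusted p = 0.040), from a baseline median of 14.5 CPM to 22.9 and 21.8. At t2 the call ended without baseline 343, 344, 345 or 356 or t2 334, 347 or 360 or t4 348 (adjusted p up to 0.12), and at t4 the call ended without baseline 343, 344, 345 or 356 or t4 335, 340, 348, 371 or 377 (adjusted p up to 0.091). Pmvk, the next kinase, passed at t4 alone (log2 change 0.54, SE 0.18, adjusted p = 0.034), from a median of 13.9 to 18.97 CPM, and the call ended without baseline 343, 345 or 355 or t4 335 or 336 (adjusted p up to 0.079). These 2 kinases were low in all groups, at most 29.3 CPM in any library.

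From squalene to cholesterol, Sqle, which adds the oxygen that lets squalene cyclise and is a slow step of the route, fell most at t0. It stood at 67.4, 83.7 and 91.4 CPM (lowest, median and highest) at baseline and at 21.99, 27.5 and 61.7 at t0 (log2 change −1.30, SE 0.19, adjusted p = 3.3e-06). The t0 library nearest to baseline was t0 359 (61.7 CPM), the one with the most ciliated cell markers, and the other 5 lay between 21.99 and 33.3. In the t2 libraries it was back at 74.1, 81.4, 81.8, 92.5 and 125. Its t4 libraries, at 100.1, 111 and 127, were all above baseline, without a call (log2 change 0.46, SE 0.18, adjusted p = 0.079). Fdft1, which makes squalene, fell at t0 (log2 change −0.46, SE 0.17, adjusted p = 0.034) and rose at t6 (log2 change 0.63, SE 0.18, adjusted p = 0.028), with group medians of 35.6 CPM at baseline, 30.5 at t0 and 55.9 at t6. At t0 the call ended without baseline 343 or 356 or t0 374 or 375 (adjusted p up to 0.12), and at t6 the call ended without baseline 344, 352 or 355 or t6 341 or 365 (adjusted p up to 0.13). Hsd17b7, a reductase of sterol intermediates, also fell at t0 (log2 change −0.71, SE 0.27, adjusted p = 0.033), from a median of 9.48 to 5.53 CPM, where the call ended without baseline 345 or 356 or t0 332, 357, 374 or 375 (adjusted p up to 0.087), and limma did not call it.

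The enzymes that remove the methyl groups of lanosterol were called at different times. Cyp51, the lanosterol demethylase, stood at 32.3, 38.9 and 43.6 CPM at baseline and 21.2, 23.8 and 43.3 at t0 (log2 change −0.51, SE 0.20, adjusted p = 0.036). The highest t0 value, 43.3, was again that of t0 359, and at t0 the call ended without baseline 345, 352 or 356 or t0 332, 367, 374 or 375 (adjusted p up to 0.084). At t4 it was 43.9, 57.1 and 88.4, just above every baseline library (log2 change 0.62, SE 0.20, adjusted p = 0.029), where the call ended without baseline 343, 344 or 355 or t4 335, 336 or 371 (adjusted p up to 0.094). Msmo1 (chromosome 8, 64718145 to 64733579), the methyl oxidase of the next steps, stood at 31.04, 37.9 and 51.6 CPM at baseline, 17.3, 32.7 and 52.9 at t0 and 56.7, 72.1 and 107 at t4. In the 5 t6 libraries it was 59.9, 65.8, 86.3, 136 and 197, a 2.77-fold higher level (log2 change 1.47, SE 0.26, adjusted p = 0.00065). Every t4 and t6 library was above every baseline library, and the call at t4 (log2 change 0.95, SE 0.25, adjusted p = 0.010) and that at t6 held without any single library. Nsdhl, the dehydrogenase of the same demethylation, passed at t6 alone (log2 change 0.60, SE 0.17, adjusted p = 0.028), from a median of 15.1 to 25.2 CPM, and the call ended without baseline 344, 352 or 355 or t6 341, 365 or 368 (adjusted p up to 0.088).

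At t2, 3 enzymes of the route from squalene to cholesterol passed against baseline. Ebp, the sterol isomerase, stood at 64.4, 80.9 and 104 CPM at baseline and at 109, 116, 118, 119 and 119.8 in the 5 t2 libraries, all above baseline (log2 change 0.51, SE 0.16, adjusted p = 0.026), where the call ended without baseline 343 or 352 (adjusted p up to 0.066). Tm7sf2, a sterol reductase, moved from a median of 11.7 to 15.5 CPM (log2 change 0.54, SE 0.17, adjusted p = 0.025), where the call ended without baseline 343 or t2 334 or 339 (adjusted p up to 0.071). Lss, which folds oxidised squalene into lanosterol, was at 20.3, 20.6, 21.6, 22.9 and 47.01 CPM in the t2 libraries against a baseline range of 13.9 to 23.4 (log2 change 0.63, SE 0.20, adjusted p = 0.025). Its highest t2 value was that of t2 339, and the call ended without baseline 343, 345 or 356 or t2 339 (adjusted p up to 0.15). The call of Lss was also lost without the 6 libraries set apart, and those of Lss, Tm7sf2 and Mvk at t2 in a fit of baseline and t2 alone. Sc5d and Dhcr7, which act at the end of the route, had no call in any of the 6 comparisons, with group medians of 21.8 to 23.6 and 10.2 to 14.9 CPM.

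Stard4, a carrier that moves cholesterol between membranes and is raised by SREBPs, fell at t0. Its level was 11.98, 14.4 and 17.02 CPM (lowest, median and highest) at baseline and 4.68, 5.28 and 12.5 at t0 (log2 change −1.18, SE 0.26, adjusted p = 0.00058). In 5 of 6 t0 libraries it lay between 4.68 and 5.55, and t0 359, at 12.5, reached the baseline range. From t0 to t6 it rose by 1.65 on the log2 scale (adjusted p = 2.5e-05), to 12.2, 14.7, 19.8, 20.5 and 33.2 CPM. Against baseline it was not called at t2, t4 or t6 (log2 change 0.47 at t6).

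The 6 genes of fatty acid synthesis differed in their calls: Fasn rose throughout, Scd1 rose at t0 and t6, Scd2 fell at t2, and Acly, Acaca and Elovl6 had no call in any of the 6 comparisons. Fasn (chromosome 11, 120805958 to 120824548), which builds palmitate, stood at 128, 181 and 216 CPM at baseline, 246, 269 and 351 at t0, 286, 309.6, 327, 360.3 and 399 in the 5 t2 libraries, 219, 324 and 417 at t4 and 241, 259.6, 279.8, 283 and 375 in the 5 t6 libraries. No exposed library overlapped baseline, although t4 377, at 218.5, lay just above it. The log2 changes were 0.66 (SE 0.14, adjusted p = 0.00047) at t0, 0.92 (SE 0.15, adjusted p = 0.00018) at t2, 0.85 (SE 0.14, adjusted p = 0.00020) at t4 and 0.69 (SE 0.15, adjusted p = 0.0035) at t6, and they held without any single library. Acly, which makes cytosolic acetyl-CoA, had group medians of 126 to 144 CPM, and Acaca, which makes malonyl-CoA, of 28.1 to 33.9. Elovl6, which lengthens palmitate, had medians of 11.5 to 12.5 CPM, and 58.1 in t2 339 against at most 13.3 in the other t2 libraries.

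Scd1 (chromosome 19, 44394450 to 44407710), a desaturase that makes monounsaturated fatty acids, varied widely between mice. It was 6.30, 15.6 and 39.2 CPM (lowest, median and highest) at baseline, 18.6, 79.4 and 193 at t0, 11.9, 35.4, 48.3, 82.2 and 83.4 in the 5 t2 libraries, 12.5, 23.9 and 193 at t4 and 41.2, 66.6, 67.5, 139 and 818 in the 5 t6 libraries. The t6 libraries alone did not overlap baseline. The log2 change was 2.25 (SE 0.80, adjusted p = 0.024) at t0, where the call ended without baseline 355 or t0 374 (adjusted p up to 0.061), and 3.56 (SE 0.86, adjusted p = 0.0095) at t6. Without t6 368, which held 818 CPM, the t6 value was 2.03 (adjusted p = 0.079). Scd2, its neighbour on the same chromosome and an enzyme of the same activity, stood at 127, 131 and 160.0 CPM at baseline and 56.6, 61.6, 63.2, 71.5 and 118 in the t2 libraries (log2 change −0.90, SE 0.29, adjusted p = 0.032), where the call ended without baseline 352 or t2 339, 347, 358 or 360 (adjusted p up to 0.068), and also without the 6 libraries set apart. Counts of both genes were fractional in at least 27 of 28 libraries, so that their reads may have been shared out between near-identical genes, and the same holds for Acat2, Fdft1, Lss, Srebf1 and Acly (at least 25 libraries). As log2(Scd1/Scd2), the ratio was −3.05 ± 0.92 (SD, n = 6) at baseline, −0.58 ± 1.8 (n = 6) at t0, −0.75 ± 1.24 (n = 5) at t2, −1.32 ± 1.71 (n = 6) at t4 and 0.33 ± 1.66 (n = 5) at t6. The difference was 2.47 at t0 (exact two-sided permutation test, p = 0.017, adjusted 0.028), 2.30 at t2 (p = 0.0087, adjusted 0.023), 1.73 at t4 (p = 0.061, adjusted 0.081) and 3.37 at t6 (p = 0.0022, adjusted 0.0087). The t0 call ended without baseline 343, 344, 345 or 355 (adjusted up to 0.083), and the t4 difference was called without t4 371 (2.17, adjusted 0.022) or baseline 356 (2.00, adjusted 0.046).

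Fat cells express Fasn and Scd1 strongly, and adipocyte markers moved in the same direction. The 10 markers on the list (all in the table, 9 tested) summed to 44.5, 56.1 and 90.1 CPM at baseline (lowest, median and highest). The sums were 107, 227 and 304 in the t0 libraries, 129, 134 and 415 in t2, 123, 151 and 409 in t4 and 109, 189 and 448 in t6. By this sum, every exposed library was above every baseline library, though single markers overlapped. Lipe had the highest median of the 10 at baseline (27.6 CPM), t2 (87.6) and t4 (91.7), and so weighed most in those sums. At t6 its median was also the highest (50.2), close to that of Cfd (49.5). Of the 9 tested, t0 had 7 that rose, t2 had 5, t4 had 6 and t6 had 7, and 0 fell. Among all genes, 23.3% (t0), 11.2% (t2), 10% (t4) and 4.54% (t6) rose. Adiponectin (Adipoq), a defining marker, had medians of 1.75 CPM before exposure and then 7.15 (t0), 6.30 (t2), 4.01 (t4) and 9.12 (t6). Its highest baseline value was 2.73, and its lowest values were 1.61 (t0), 1.97 (t2), 1.44 (t4) and 5.18 (t6), so that only t6 did not overlap baseline. Leptin (Lep) was at 0 in 2 baseline, 2 t0 and 3 t2 libraries. In each exposed group, the library with the highest Scd1 (t0 374, t2 360, t4 336 and t6 368) was also the one with the highest adipocyte sum. For Fasn the same libraries were highest at t0, t4 and t6. At t2 the highest Fasn was in t2 334 (399 CPM), which had the lowest t2 sum (129). At baseline the highest Scd1 was in 356 and the highest sum in 352. Their part in the rise of Fasn and Scd1 was not tested.

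**Figure D4:**
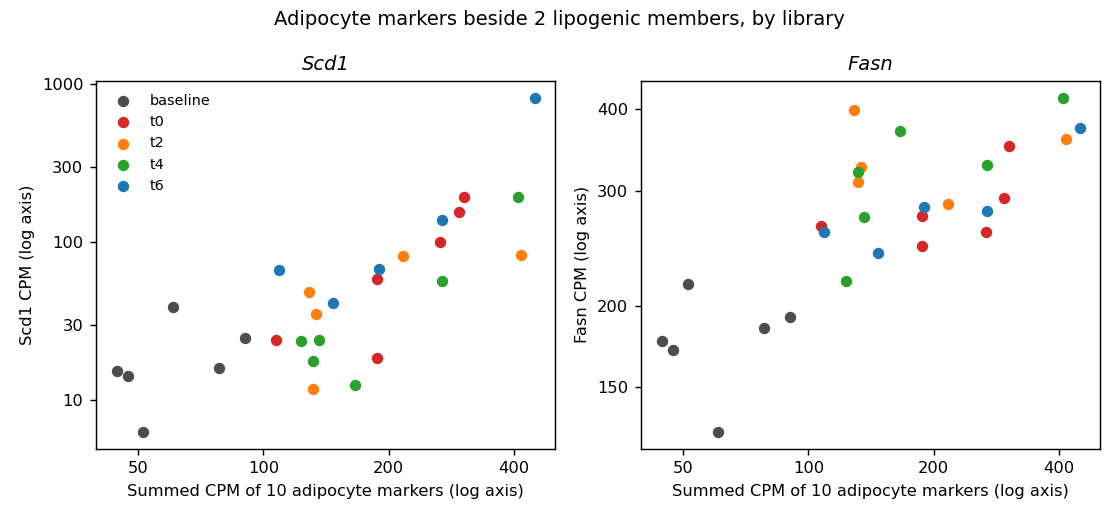
CPM of Scd1 (left) and Fasn (right) against the summed CPM of 10 adipocyte markers, one point per knockout library, coloured by group, log axes. The t6 library with 818 CPM of Scd1 has the highest marker sum (448), and baseline libraries lie at or below 90.1.

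Other cell type markers moved too, in comparisons that called 45.5% (t0), 19.9% (t2), 19.6% (t4) and 8.83% (t6) of all genes. At t0, club cell markers fell (8 of 8) and ciliated cell markers fell (8 of 8), basal cell markers rose (5 of 6), macrophage markers rose (5 of 6 tested) and cycling cell markers rose (6 of 6). At t2, t4 and t6, club cell markers fell in 5, 6 and 5 of 8, ciliated cell markers rose in 0, 2 and 0 of 8, and 0 of 6 cycling cell markers were called. Basal cell markers rose in 3, 1 and 1 of 6 (and fell in 0, 1 and 1), and macrophage markers rose in 2, 3 and 1 of 6. Markers of squamous epithelium rose in 4 of 5 tested in each of the 4 exposed groups. Markers of T and B cells rose in 5 of 5 tested at t0 and in 0, 3 and 2 at the later times. Skeletal muscle markers rose at every time (5 of 6 at t0, 6 of 6 later), and their sum was 1.62, 3.64 and 8.96 CPM at baseline and 14.4, 438 and 1165 at t6 (lowest, median and highest). Cartilage markers fell in 1, 1, 3 and 0 of 4 at t0, t2, t4 and t6, and red blood cell markers rose in 1, 0, 1 and 0 of 5. Alveolar type 2 markers, of the cells best known for this pathway, summed to 284, 402 and 444 CPM at baseline and 121, 214 and 258 at t0 (3 fell and 1 rose of 6), and 0 of 6 were called at t2, t4 or t6. Clock genes, which follow the hour of collection, had 6 of 14 called at t0 and t2 (42.9%, 3 rose and 3 fell each time). At t4, 4 of 14 were called (28.6%), and at t6, 2 (14.3%). The part of these cell types and of the clock in the members' changes was not tested.

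Other genes of SREBP control and lipid synthesis, a list of 24, had 2 that rose at t0 with 5 that fell (29.2% called, against 45.5% of all genes). For t2 the counts were 2 up with 4 down (25%, against 19.9%). For t4 they were 6 up with 2 down (33.3%, against 19.6%), and for t6 they were 4 up with 1 down (20.8%, against 8.83%). The list's medians were −0.08 (t0), 0.02 (t2), −0.15 (t4) and 0.01 (t6). Fads1, which makes polyunsaturated fatty acids and is raised by SREBPs, stood at 26.3, 28.9 and 30.98 CPM at baseline and 43.6, 51.4, 54.5, 58.7 and 63.4 in the 5 t6 libraries, without overlap (log2 change 0.92, SE 0.13, adjusted p = 4.4e-05), and it also rose at t4 (log2 change 0.70, SE 0.13, adjusted p = 0.00040). Acss2, which makes acetyl-CoA from acetate, fell from a median of 88.6 to 35.8 CPM at t0 (log2 change −1.23, SE 0.14, adjusted p = 1.2e-07), and was called lower at t2 and t4 but not at t6 (log2 change −0.28, SE 0.15, adjusted p = 0.26). Gpam, which starts triglyceride and phospholipid synthesis, fell at all 4 times, from a median of 58.04 CPM to 23.8, 39.7, 26.1 and 34.6 (log2 change −1.46, SE 0.18, adjusted p = 4.9e-07 at t0 and log2 change −1.37, SE 0.18, adjusted p = 1.4e-05 at t4). These genes differed in course: Fads1 had its highest group median at t6, and Gpam was below every baseline library at each time.

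Of 12 genes of sterol efflux, LXR and lysosomal cholesterol release, 8 rose and 0 fell at t0 (median 0.98, with 23.3% of all genes called higher), where macrophage markers rose too. At t2, 1 rose and 2 fell (25% called, against 19.9% of all genes). At t4, 2 rose and 3 fell (41.7%, against 19.6%), and at t6, 3 rose and 3 fell (50%, against 8.83%). The lysosomal lipase Lipa stood at 9.10, 13.8 and 15.7 CPM at baseline and 76.6, 148 and 256 at t0 (log2 change 3.58, SE 0.42, adjusted p = 2.4e-07). The exporter Abcg1 moved from a median of 6.49 to 82.1 (log2 change 3.78, SE 0.52, adjusted p = 2.1e-06), and the oxysterol-forming enzyme Cyp27a1 from 3.62 to 32.04 (log2 change 3.07, SE 0.28, adjusted p = 2.9e-09). The exporter Abca1 rose at t0 (log2 change 1.01, SE 0.29, adjusted p = 0.0064) and then fell below baseline, with medians of 28.6 CPM before exposure and 59.8 (t0), 11.4 (t2), 7.10 (t4) and 12.3 (t6) after it. At t4 the log2 change was −1.99 (SE 0.31, adjusted p = 7.3e-05). Every t2, t4 and t6 library was below every baseline library for Abca1. The 6 macrophage markers tested summed to 391, 516 and 669 CPM at baseline, 787, 1342 and 1654 at t0 and 341, 455 and 536 at t4 (lowest, median and highest). Cd14 had the highest median of the 6 at baseline (437 CPM), t0 (611) and t4 (296), and so weighed most in these sums. From baseline to t4, the median fell for Cd14 alone and was higher for each other marker. By the edgeR test, 3 of the 6 rose at t4 and 0 fell, so the t4 sum mainly follows Cd14. The part of macrophages in these changes was not tested.

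Genes of fatty acid oxidation, 15 in all, had 2 that rose at t0 with 3 that fell (33.3% called, against 45.5% of all genes). For t2 the counts were 1 up with 4 down (33.3%, against 19.9%). For t4 they were 1 up with 8 down (60%, against 19.6%), and for t6 they were 0 up with 4 down (26.7%, against 8.83%). Ppara, the receptor that drives these genes, fell at all 4 times, from a median of 34.00 CPM to 12.3 at t0 (log2 change −1.24, SE 0.21, adjusted p = 2.3e-05) and 19.99 at t6 (log2 change −0.69, SE 0.22, adjusted p = 0.042). Ppard, a related receptor, rose at t0 (log2 change 1.15, SE 0.17, adjusted p = 5.9e-06), t2 and t4. Hadha, of the oxidation cycle itself, had a median of 165 CPM at baseline and 109 at t6 (log2 change −0.66, SE 0.11, adjusted p = 0.00029), while at t0 it was 186 (log2 change 0.10, SE 0.10, adjusted p = 0.47).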

How the data were processed

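The 30 members and all gene and marker lists were chosen with earlier results of these data known. Poly-A libraries, from RNA whose integrity number was 7 or more, were run on an Ion Proton, per the labels' protocols. For the knockout libraries the submitters' processing notes name STAR 2.4.1d, Bowtie2 2.1.0, Partek and the mm10 build. The deposited knockout table holds estimated counts per gene (24223 rows). Of its values above 0, 76.3% were whole within 0.01, and how reads were shared between genes, and whether strand was used, is not given in the sources used here. For the wild-type libraries the authors deposited TPM and expected counts per gene, and the submitters' processing notes name STAR 2.7.0f, RSEM 1.3.1 and GRCm38. No per-sample column went unmapped.

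Counts were rounded and tested with edgeR 4.0.16 (TMM scaling, robust quasi-likelihood fit of group means, all 28 libraries together, Benjamini-Hochberg adjustment over genes, threshold 0.05). Genes needed at least 1 CPM in at least 5 libraries, which 14847 genes and all 30 members did. CPM values are counts scaled to a common library size by TMM. Within-library log2 ratios added 0.5 to each count and were compared by exact permutation tests, adjusted over 8 tests. The code was tested on simulated data. Alternatives were DESeq2 1.42.0, limma 3.58.1, other scalings and filters, and leaving out libraries. Motifs were searched on both strands of RefSeq promoter windows. All members are named, and from each other pathway list the 4 genes with the smallest F test p, of which some are not reported here.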

Additional observations from a re-analysis of the deposited data

Results flagged for a closer look

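Each member was examined in each group of libraries, which gave 150 sets of CPM values. In 19 of these sets (12.7%), the highest or lowest CPM lay far from the rest by Dixon's criterion. By chance the criterion flags about 5% of independent sets. The members share the same libraries, so the sets are not independent, and 12.7% cannot be weighed against that 5%. The library labelled t2 339 gave 7 of the 19 flagged sets. It was highest for Pmvk (29.3 CPM, the nearest other t2 library at 18.6), Lss (47.0 against 22.9), Cyp51 (75.8 against 50.0), Stard4 (24.6 against 12.2) and Elovl6 (58.1 against 13.3). It was lowest for Idi1 (14.0 against 31.8) and Acaca (18.9 against 29.2). The library t0 359 gave 3, being the highest of t0 for Sqle (61.7 against 33.3), Cyp51 (43.3 against 28.7) and Stard4 (12.5 against 5.55).

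The library t6 368 was highest for Scd1 (818 CPM against 139) and Acaca (66.3 against 29.8). The library t4 336 was highest for Scd1 (193 against 56.5) and Acly (195 against 142). Hmgcs1 was highest in t4 335 (163 against 123), Tm7sf2 in t6 365 (14.8 against 12.2), and Scd2 in t2 334 (118 against 71.5) and in t6 341 (153 against 87.5). Acly was lowest in baseline 344 (107 against 139).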

How the results depend on the processing

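Of 67 member calls in the 6 pairwise comparisons, 67 were kept with DESeq2, with its size factors in edgeR, with a minimum of 10 counts, and with haemoglobin genes and Rn45s left out. Limma kept 65, the fits of only the groups compared 63, the fit without the filter 62, library totals 55, and the fit without the 6 libraries set apart 63. In these settings no call changed direction. Leaving out 1 library at a time gave 9 to 13 members called at t0, 5 to 9 at t2 (5 without baseline 343), 4 to 10 at t4 (5 without baseline 343 and 4 without t4 335) and 5 to 11 at t6 (5 without baseline 352, t6 341 or t6 365). It gave 13 to 16 from t0 to t2, 14 to 15 from t0 to t6, and 20 to 22 in the F test.

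Without the 6 libraries set apart, the t4 differences in log2(Insig2/Insig1) (0.57, adjusted exact permutation p = 0.040) and in log2(Scd1/Scd2) (2.17, adjusted exact permutation p = 0.019) were called. Among the t4 and baseline libraries only t4 371 is set apart, so these repeat the differences given above without t4 371. Leaving out 1 library at a time, log2(Insig2/Insig1) differed from baseline by 1.38 to 1.54 at t0, 0.56 to 0.77 at t2, 0.22 to 0.57 at t4 and −0.066 to 0.053 at t6. For log2(Scd1/Scd2) the ranges were 2.07 to 2.95 at t0, 1.98 to 2.72 at t2, 1.26 to 2.17 at t4 and 2.65 to 3.70 at t6. No paired analysis was possible because each library came from a different mouse and no number is shared between groups.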
